A study of Papio hamadryas with 12 samples.

Results

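The shortest annotated nuclear genes of the baboon were examined in RNA-seq libraries of blood cells. They were chosen by length alone: after the rows of the count table were summed by gene, genes outside chromosome MT (the mitochondrial genome) were kept when their span, the largest stop minus the smallest start of the gene, was under 200 bp. The rule gave 6783 features of the 27533 genes in the table, each with 1 transcript and with spans from 41 bp to just under the limit (median 102 bp). The remaining nuclear genes were 3170 compact genes of 200 to 1000 bp and 17542 genes over 1000 bp, and 23 of the 38 chromosome MT genes are under 200 bp and were left out by the rule. Positions are given as deposited, on the Ensembl PapAnu2 release 76 annotation, which the table lists without gene symbol, class or strand.

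The 12 libraries come from the buffy coat, the layer of white blood cells and platelets of centrifuged blood, of 6 baboons with low (baboons 1 to 3) or high (baboons 4 to 6) low-density lipoprotein cholesterol (LDL-C), which the study describes as pairs of half-siblings. Each baboon was sampled after 7 weeks on a high-cholesterol, high-fat (HCHF) diet, in which fat gave 40% of calories and cholesterol was 1.7 mg per kcal. The earlier sample was taken on chow, at 4% of calories and 0.03 mg per kcal. The 4 groups of 3 libraries are thus low LDL-C on HCHF and on chow, and high LDL-C on HCHF and on chow. The messenger RNA was enriched by its poly(A) tail, and the same animals gave both diets with no animals kept on chow for the same time, so diet and time cannot be told apart.

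Annotated nuclear genes of this length are mostly small noncoding RNAs. Among them are spliceosomal small nuclear RNAs, which remove introns, small nucleolar RNAs, which guide chemical modification of ribosomal RNA and often lie in the introns of longer host genes, Y RNAs, and hairpin precursors of microRNAs, which repress messenger RNAs. Most carry no poly(A) tail and are largely lost in poly(A) selection, primate genomes hold many pseudogene copies of the small nuclear RNAs and Y RNAs, and some short features are fragments of protein-coding genes. Which of these classes a given feature belongs to is not known from the files, so the features are described by position, span and neighbourhood, and none of the marker genes of blood cell types could be looked up by symbol.

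Most of the short features had no reads. Of the 6783, 942 (13.9%) had at least 1 count in any library and 5841 had none, whereas 1747 of the compact genes (55.1%), 15661 of the longer genes (89.3%) and all 38 chromosome MT genes (100%) had counts. Among the 942, 31 were counted in all 12 libraries and 429 in exactly 1. The counts were also thin, since 394 features had 1 count over all libraries together and 767 had under 10. Features seen in a single library never exceeded 3 counts there.

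The spans right next to the limit of 200 bp held few counts. Just inside it, the 3 features with the longest span had 4 counts in all and the 7 that are 1 bp shorter had 0. Just outside, 5 genes of 200 bp had 37 counts, of which 33 fell on 1 gene, and the 8 genes that are 1 bp longer had 8 counts. Further out the limit did matter. With a limit of 250 bp, the median share of all counts per library was 0.191%, against 0.106% with 200 bp.

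Detection differed between span classes. At least 1 count was found for 171 of 1266 features under 80 bp (13.5%), for 492 of 4452 features of 80 to under 120 bp (11.1%) and for 279 of 1065 features of at least 120 bp (26.2%). The longest class held 82.1% of all 55849 counts on short features, the middle class 11.7% and the shortest 6.18%. The most frequent single span, 107 bp, was shared by 455 features, of which 42 (9.23%) were detected with 83 counts together. Similarly, 15 of 207 features of 102 bp and 14 of 188 features of 104 bp were detected, with 26 and 48 counts. None of the features with these 3 spans was counted in all 12 libraries.

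The neighbourhood of a feature went along with its detection. Of 2308 features whose span overlaps another gene, 2291 of them nested inside it, 482 (20.9%) were detected, compared with 460 of the 4475 (10.3%) that overlap none. Where the overlapping gene averaged at least 10 CPM (counts per 1000000 counts of a library), 301 of 772 features were detected (39.0%). The share was 18.2% (145 of 798) where that gene was at 1 to 10 CPM and 4.88% (36 of 738) where it was under 1 CPM. The features outside any gene on assembled chromosomes were detected in 29.2% of cases (165 of 566) when a gene of at least 200 bp lay within 5000 bp, and in 8.95% (295 of 3297) otherwise. The table has no strand and the count of a nested feature cannot be told apart from unspliced or overlapping RNA of its host. The 675 short features on unplaced scaffolds were all at 0, as were all 1345 scaffold genes of any length, so that their zeros say nothing about short features in particular.

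**Figure D1:**
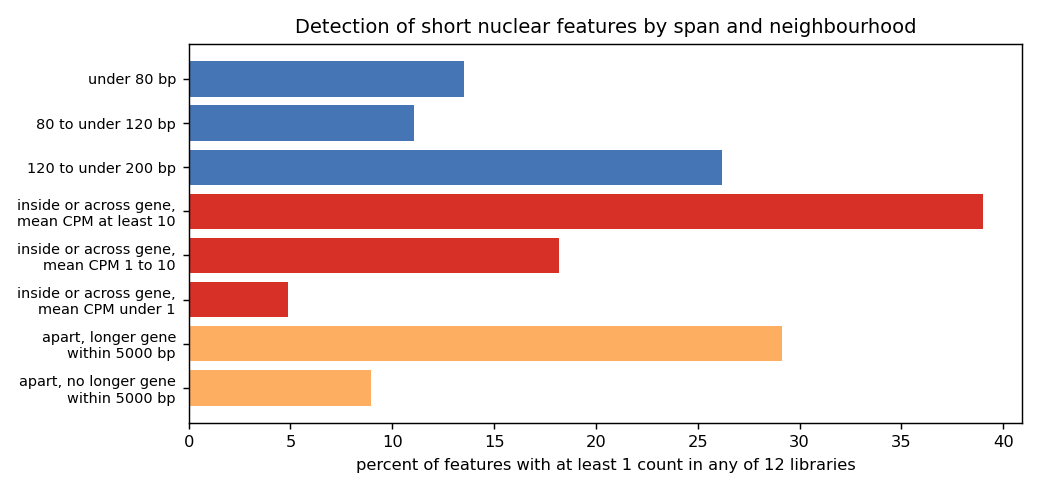
Percent of short nuclear features with at least 1 count in any of the 12 libraries (horizontal axis), by span class (blue), by the mean CPM of the gene they overlap (red) and, for features on assembled chromosomes that overlap no gene, by distance to the next longer gene (orange). The bars run from 39.0% for features in genes of at least 10 CPM to 4.88% for features in genes under 1 CPM.

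Per library, between 122 and 405 features were detected (median 257.5), and between 14 and 34 had at least 10 counts (median 22.5). In low LDL-C baboons 1, 2 and 3, 233, 282 and 154 features were detected on the HCHF diet, against 405, 122 and 201 on chow. In high LDL-C baboons 4, 5 and 6 the numbers were 305, 256 and 307 on HCHF and 313, 259 and 246 on chow. The groups overlapped on both diets, and the number was higher on HCHF in 2 of 6 baboons.

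Detection went along with depth. The libraries held 3434663 to 8518159 counts, and 2 genes alone took 16.3 to 89.3% of them, namely one at 39182 to 41379 of chromosome 20 and one at 60046720 to 60049466 of chromosome 14. The extremes were the HCHF library of baboon 6 (16.3%) and the chow library of baboon 1 (16.8%) on one side, and the chow library of baboon 2 (89.3%) on the other, which left 915109 counts for all other genes. When every library was thinned to that number, the expected number of detected features was 128, 171 and 93.8 on HCHF against 182, 122 and 159.8 on chow in baboons 1 to 3, and 178, 169 and 155 against 161, 175 and 155 in baboons 4 to 6. At that depth 3 of 6 baboons were higher on HCHF. It still includes chromosome MT. With the counts outside that chromosome as well thinned to 769708, the numbers were 159.7, 211 and 108 on HCHF against 214, 122 and 164 on chow in baboons 1 to 3, and 198.97, 186 and 189 on HCHF against 175, 189.8 and 180.0 on chow in baboons 4 to 6. The same 3 baboons, 2, 4 and 6, were higher on HCHF, and the lowest and the highest number both came from low LDL-C baboons either way.

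The short features took 0.0415 to 0.138% of all counts (median 0.106%), whereas the compact genes took 1.34 to 5.12%. In low LDL-C baboons the share of short features was 0.122, 0.0674 and 0.104% on HCHF and 0.132, 0.0415 and 0.0835% on chow. In high LDL-C baboons it was 0.124, 0.109 and 0.138% on HCHF and 0.111, 0.0922 and 0.0833% on chow. It was higher on HCHF in 5 of 6 baboons, all but baboon 1, and the diets overlapped in both phenotypes. The share of the compact genes was higher on HCHF in 6 of 6 baboons. Counting error alone was small, with a 95% Wilson interval of 0.0402 to 0.0429% for the lowest share (baboon 2 on chow) and of 0.134 to 0.142% for the highest (baboon 6 on HCHF). These intervals do not cover the spread between baboons.

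The denominator mattered for this share. Outside the 2 leading genes and chromosome MT, whose own share ran from 1.71% in the chow library of baboon 2 to 32.1% in the HCHF library of baboon 6, the short features held 0.404, 0.320 and 0.376% on HCHF against 0.246, 0.460 and 0.286% on chow in low LDL-C baboons. In high LDL-C baboons they held 0.317, 0.294 and 0.267% on HCHF against 0.312, 0.281 and 0.264% on chow. Here too 5 of 6 baboons were higher on HCHF, but the exception was baboon 2, whose chow library was now the highest of the 12 rather than the lowest. The part of the leading genes and of chromosome MT in these shares was not tested, and in bulk RNA fewer cells of a type cannot be told apart from less RNA per cell.

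**Figure D2:**
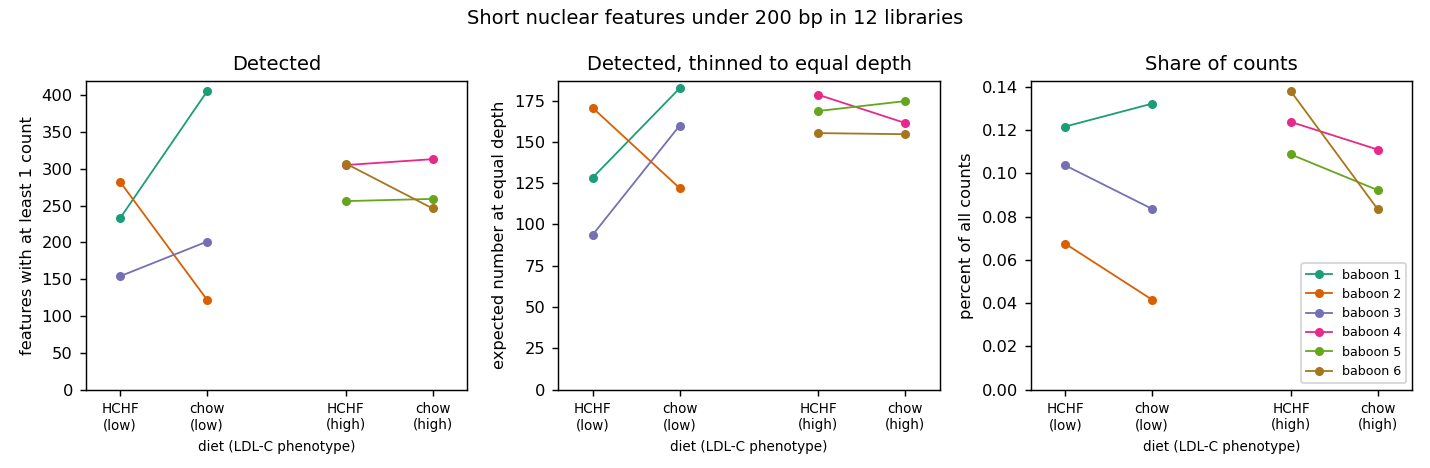
Short nuclear features in each library: number with at least 1 count (left), expected number after thinning to 915109 counts outside the 2 leading genes (middle) and percent of all counts (right). Lines join the HCHF and chow libraries of a baboon, with low LDL-C baboons 1 to 3 to the left and high LDL-C baboons 4 to 6 to the right in each panel. The span of 122 to 405 detected features narrows to 93.8 to 182 after thinning.

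A handful of features carried the class. The top feature by counts held 28.2% of all counts on short features, the top 5 held 69.9% and the top 12 held 84.6%. By chromosome, X held 29.2% of these counts, 6 held 20.3% and 14 held 17.0%, each mostly from 1 or a few features. Levels below are CPM with TMM scaling (CPM on a library size adjusted for the few genes that dominate it), unless said otherwise. The scaling decided the direction in baboon 2, whose chow library had a TMM factor of 0.134. Of the 40 features tested below, 12 were higher on HCHF than on chow in baboon 2 with TMM, 38 on total counts and 30 on counts outside the 2 leading genes and chromosome MT, so that 26 and 18 turned. In the other 5 baboons 2 to 12 features turned on total counts and 0 to 6 outside the leading genes and chromosome MT. Directions in single baboons below are on the TMM scale. Turns on other scales are given for some features only, so a direction without such a remark may turn as well.

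The highest level per length was on chromosome X from 90585649 to 90585781 (132 bp, 53981 bp from the nearest longer gene), at 267.1 CPM on average or 2024 CPM per kb. In low LDL-C baboons it had 449.8, 175.6 and 472.1 CPM on HCHF against 187.1, 309.9 and 257.4 CPM on chow. In high LDL-C baboons it had 236, 254 and 198 CPM on HCHF against 263, 207 and 196 CPM on chow. Baboons 1 and 3 on HCHF were the highest, baboon 2 on HCHF the lowest, and the diets overlapped in both phenotypes. Its log2 fold change of HCHF over chow was 0.46 (SE 0.47) in low and 0.05 (SE 0.45) in high LDL-C baboons, both within the spread.

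For 7 of the other 11 of the 12 most abundant features, the counts per count of this one stayed within a 3.0-fold range over the libraries. Per count of the 132-bp feature on X, the feature on chromosome 14 from 55335142 to 55335295 (153 bp, 105.1 CPM, 687 CPM per kb) had 0.316 to 0.470 counts over the 12 libraries. The feature on chromosome 18 from 39952219 to 39952348 (129 bp, 80.7 CPM, 625 CPM per kb) had 0.240 to 0.483 counts, and the one at 8354987 to 8355062 of chromosome 14 (75 bp, 42.0 CPM, 559 CPM per kb) had 0.108 to 0.215. Those at 26096616 to 26096727 of chromosome 13 (111 bp, 19.9 CPM) and at 69102110 to 69102302 of chromosome 6 (192 bp, 16.2 CPM) had 0.0494 to 0.105 and 0.0455 to 0.0961 counts. These 5 ratios varied 1.5-fold to 2.1-fold, while the level of the X feature itself varied 2.7-fold with TMM and 10.7-fold on total counts, with the lowest value, 41.6 CPM, for baboon 2 on chow and the highest, 443 CPM, for baboon 6 on HCHF. All 5 lie outside any annotated gene. A pair of features inside genes of chromosome 2, described further on, had ratios that varied 2.6-fold and 3.0-fold, and the remaining 4 varied 19.2-fold to 24.7-fold. The features share libraries and depth, and the ratios are descriptions.

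The 153-bp feature of chromosome 14 had 208, 73.3 and 222 CPM on HCHF against 71.2, 106 and 81.2 CPM on chow in the low LDL-C group, where the log2 fold change was 0.86 (SE 0.46). High LDL-C animals had 102, 89.6 and 73.4 CPM on HCHF and 95.9, 75.1 and 62.9 CPM on chow, and their log2 fold change was 0.19 (SE 0.43). All 3 high LDL-C baboons were higher on HCHF, by little, and of the low LDL-C baboons baboon 2 alone was lower. On total counts baboon 2 was higher too, at 53.3 CPM on HCHF against 14.2 CPM on chow, as were the other 5. Outside the leading genes and chromosome MT it had 253 CPM on HCHF against 157 CPM on chow, and baboon 5 alone was lower on HCHF.

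The feature with the highest mean TMM level owed that rank to 1 library. It lies on chromosome 6 from 51528935 to 51529124 (189 bp) inside a gene of 103592 bp that averaged 2.06 CPM itself, and had 286.9 CPM, or 1518 CPM per kb. Without the chow library of baboon 2 its mean was 148 CPM, and on total counts it averaged 166 CPM against 290.5 CPM for the X feature, so that it came second in both. The chow library of baboon 2 gave 1812 CPM and the other 11 libraries 48.8 to 291 CPM. Low LDL-C baboons had 242, 211 and 291 CPM on HCHF, against 54.6, 1812 and 188 CPM on chow, and in high LDL-C baboons 106, 114 and 48.8 CPM on HCHF, against 126, 125 and 124 CPM on chow. The diets overlapped in low LDL-C baboons, and the 3 high LDL-C baboons were lower on HCHF with a log2 difference of -0.57 (SE 0.75), which did not pass the test. On total counts, without TMM, the same feature spanned 109 to 243 CPM, a 2.2-fold range, against 37.1-fold with TMM. Relative to the counts of the 2 leading genes it varied 2.9-fold. Per count of the X feature it spanned 0.246 to 5.85.

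The feature on chromosome 16 from 5883773 to 5883905 (132 bp, 56.0 CPM, 103678 bp from the nearest longer gene) had a similar profile with TMM, at 333.6 CPM in the library of baboon 2 on chow and at 10.5 to 55.3 CPM in the others. On total counts it spanned 20.4 to 69.0 CPM, and its highest library was then that of baboon 4 on chow. Relative to the counts of the 2 leading genes it varied 5.3-fold. Its levels were lower on HCHF in all 3 high LDL-C baboons, at 30.9, 17.6 and 13.8 CPM against 51.6, 32.6 and 29.1 CPM on chow, with a log2 difference of -0.90 (SE 0.62) that did not pass the test. On the TMM scale, the levels of the chow library of baboon 2 rest on 915109 counts outside the leading genes. Of the 40 features tested below, 14 had their highest level there with TMM, against 1 on total counts. Of all 11579 genes tested, 1474 did with TMM and 85 on total counts.

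The feature on chromosome 13 from 87498444 to 87498590 (146 bp, 29.9 CPM, 205 CPM per kb) varied 17.4-fold between libraries with TMM and 13.1-fold on total counts. It had 18.2, 72.3 and 9.01 CPM on HCHF against 5.38, 93.7 and 6.42 CPM on chow in low LDL-C baboons. High LDL-C animals had 31.9, 70.6 and 10.7 CPM on HCHF against 7.43, 17.8 and 15.8 CPM on chow. With TMM baboon 2 was high on both diets, 4 of 6 baboons were higher on HCHF, and the groups overlapped. On total counts 6 of 6 were higher on HCHF. Over all 6 baboons the log2 fold change was 0.92 (SE 0.41), with an adjusted p of 0.929 (edgeR quasi-likelihood test, Benjamini-Hochberg).

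A pair of the abundant features shares a host gene. On chromosome 16, the features from 56343232 to 56343332 (100 bp, 17.9 CPM) and from 56342792 to 56342859 (67 bp, 4.29 CPM) lie 373 bp apart inside a gene of 6286 bp with 766.5 CPM. In baboons 1 to 3 the 100-bp feature had 16.6, 23.2 and 3.49 CPM on HCHF, against 34.1, 15.8 and 13.1 CPM on chow. In baboons 4 to 6 it had 24.2, 12.3 and 24.2 CPM on HCHF, against 12.9, 18.4 and 16.8 CPM on chow. The number of its counts per count of the shorter feature stayed between 2.79 and 6.46 in all 12 libraries, and both were lowest in baboon 3 on HCHF. The diets overlapped in both phenotypes.

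The last 2 of the 12 most abundant features also lie in genes. On chromosome 2, the feature from 85487337 to 85487446 (109 bp, 12 CPM) is inside a gene of 9187 bp with 155.5 CPM. The feature from 152394693 to 152394867 (174 bp, 8.92 CPM) is inside a gene of 67636 bp that averaged 0.0673 CPM, so that the short feature was far above its host. The 174-bp feature had 12.2, 8.68 and 18 CPM on HCHF against 5.98, 20.1 and 6.70 CPM on chow in low LDL-C baboons, and 5.14, 5.57 and 6.12 CPM on HCHF against 7.68, 5.78 and 4.99 CPM on chow in high LDL-C baboons.

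**Figure D3:**
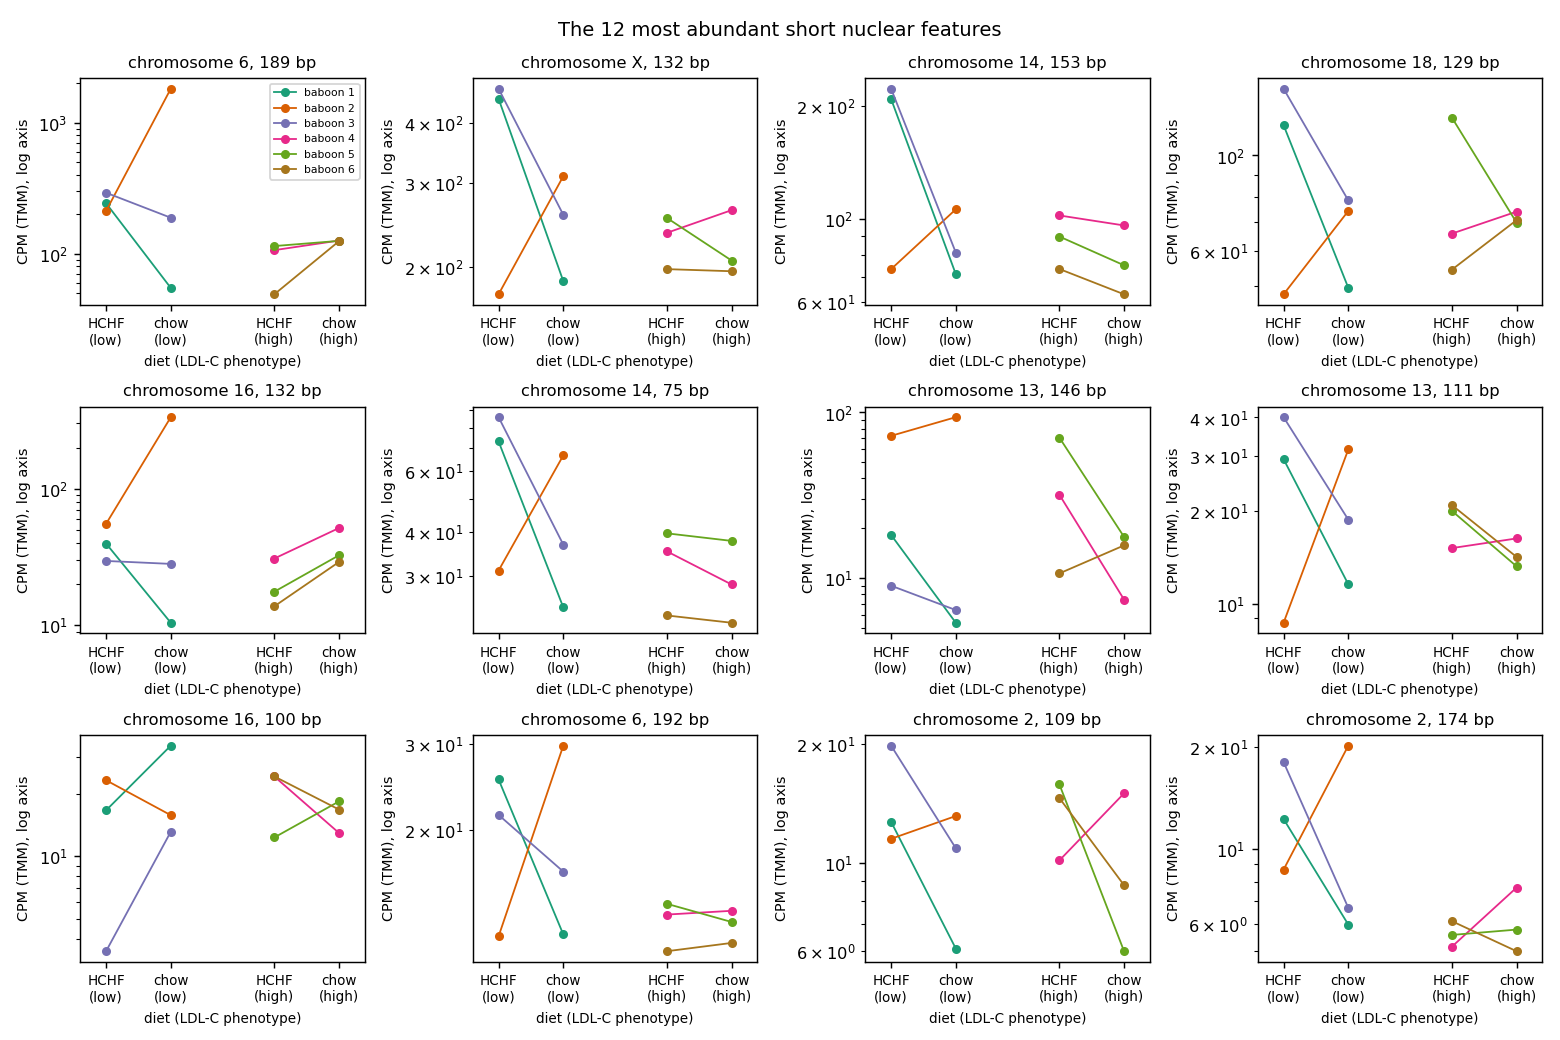
CPM with TMM scaling (log axes) of the 12 most abundant short nuclear features by mean CPM, titled by chromosome and span. Lines join the HCHF and chow libraries of a baboon, low LDL-C baboons to the left and high LDL-C baboons to the right. The chow library of baboon 2 stands out for the 189-bp feature of chromosome 6 (1812 CPM) and the 132-bp feature of chromosome 16 (333.6 CPM). Baboons 1 and 3 on HCHF stand out for the 132-bp feature of chromosome X and the 153-bp feature of chromosome 14.

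Of the 6783 features, 40 had a mean of at least 1 CPM on total counts over the 12 libraries. They entered the diet comparisons with 11579 genes in all, while the other 6743 were too low to test. The 40 had spans of 67 to 192 bp (median 134 bp), 28 were at least 120 bp long, 27 were counted in all 12 libraries, and 11 (27.5%) overlap another gene. Calls required an unadjusted p under 0.05 together with a Benjamini-Hochberg adjusted p under 0.20, the false discovery rate of 20% that the study uses for genes.

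None of the 40 short features was called in low LDL-C baboons, where edgeR's quasi-likelihood test called 0% of all genes. At an unadjusted p under 0.05, 4 of the 40 (2 higher and 2 lower on HCHF) passed, against 6.05% of all genes tested (1.78% higher and 4.27% lower), and DESeq2 and limma called 0 (0.0864% and 0% of all genes) with 3 and 5 at that p. The lowest adjusted p of a short feature in edgeR was 0.529. The median log2 fold change of the 40 was 0.09, against -0.04 over all genes and 0.39 over the compact genes tested. Of the 40, 22 (55%) were higher and 18 lower on HCHF, where 46.9% of all genes were higher. Each baboon gave another picture, with a median log2 ratio of HCHF to chow over the 40 features of 0.52 in baboon 1, -0.43 in baboon 2 and -0.05 in baboon 3. With TMM 2 features (5%) were higher on HCHF in all 3 and 8 (20%) lower, against 13% and 12% of all genes. On total counts the numbers were 6 (15%) and 0 (0%), against 3.2% and 1.49% of all genes. Outside the leading genes and chromosome MT they were 11 (27.5%) and 2 (5%), against 13.6% and 3.73% of all genes.

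The low LDL-C comparison turned on baboon 2. Without both libraries of that baboon, edgeR called 11 of 41 features tested, 8 higher and 3 lower on HCHF, against 8.59% of all genes (3.44% higher and 5.15% lower), with adjusted p from 0.131 to 0.198. The 8 include the 132-bp feature of X (log2 fold change 1.04), the 153-bp (1.47) and 75-bp (1.38) features of chromosome 14 and the 129-bp feature of chromosome 18 (1.03), and the 3 lower ones include the 100-bp feature of chromosome 16 (-1.41). The median of the 41 was then 0.63, against -0.08 over all genes. Only 2 low LDL-C baboons are left in that fit. In baboon 2 all 8 features had lower levels on HCHF than on chow with TMM, but 7 of the 8 were higher on HCHF on total counts and 5 of the 8 outside the leading genes and chromosome MT.

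None of the 40 features was called by edgeR in high LDL-C baboons, against 0.112% of all genes, which were 13 genes higher on HCHF. At an unadjusted p under 0.05, 3 passed in edgeR, all higher on HCHF, against 2.82% of all genes in that direction, 1.51% in the other and 4.34% in either, and DESeq2 and limma called 0 (0.0259% and 0% of all genes) with 3 and 2 at that p. The lowest adjusted p was 0.525. The median log2 fold change was 0.26, against 0.01 over all genes and 0.07 over the compact genes tested. Of the 40 features, 29 (72.5%) were higher and 11 lower on HCHF, where 51.3% of all genes were higher. Here the baboons were closer, with median log2 ratios of 0.11, 0.20 and 0.14 in baboons 4, 5 and 6, and 10 of the 40 features (25%) were higher on HCHF in all 3 while 5 (12.5%) were lower in all 3, against 11.9% and 12.1% of all genes. On total counts the numbers were 14 (35%) and 3 (7.5%), against 26.7% and 2.15% of all genes. Outside the leading genes and chromosome MT they were 7 (17.5%) and 5 (12.5%), against 11.8% and 11.6% of all genes.

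The scale moved these medians. With total counts in place of TMM the median of all genes shifted to 0.32 in high and to 0.04 in low LDL-C baboons, and that of the short features to 0.53 and 0.27. The difference between short features and all genes was thus 0.22 and 0.23 without TMM, against 0.24 and 0.13 with it.

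The feature with the lowest adjusted p was ENSPANG00000006456, on chromosome 16 from 49921794 to 49921985 (191 bp, 47312 bp from the nearest longer gene, 247 counts in all). High LDL-C baboons had 10.3, 6.04 and 1.82 CPM on HCHF against 0.512, 1.45 and 0.798 CPM on chow. Low LDL-C baboons had 6.0, 18.2 and 0.290 CPM on HCHF against 0.797, 2.63 and 0.558 CPM on chow. It was higher on HCHF in 5 of 6 baboons, all but baboon 3, on each of the 3 scales, and the diets did not overlap in high LDL-C baboons. The log2 fold change was 2.62 (SE 0.65) in high and 2.38 (SE 0.72) in low LDL-C baboons, with adjusted p of 0.525 and 0.618 in edgeR's quasi-likelihood test, and 2.48 (SE 0.48) over all 6 baboons with an adjusted p of 0.503. When no filter on low counts was applied, edgeR called it in all 3 comparisons, with adjusted p of 0.000839, 0.0108 and 0.00448, when 1.18%, 1.58% and 0.299% of 18388 genes were called. Its log2 fold changes stayed nearly the same there, at 2.61, 2.385 and 2.48. The unadjusted p of the edgeR test were 2.4e-06, 9.4e-05 and 2.2e-06, against 0.0020, 0.0069 and 0.00030 with the filter. These calls thus rest on how the fit without the filter gauged the spread, not on a larger change of the feature. Over all 6 baboons DESeq2 without its independent filter on low means also called it (adjusted p = 0.0868), with 0.155% of all genes. Without baboon 1 it was called by edgeR over the 5 remaining baboons (adjusted p = 0.139), with 0.353% of all genes.

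Other features of exactly 191 bp were looked up after these values had been seen. Of 17 such features 7 had counts, 365 in all, and besides the feature above 77 counts fell on the one at 10881699 to 10881890 of chromosome 14 and 25 on the one at 49919391 to 49919582 of chromosome 16. Of their 40 library values that round to at least 1 count, 16 (40%) were not whole numbers (tolerance 0.001). Among such values it was 3.70% of 3083 over all short features and 16.8% over the other nuclear genes. Smaller fractions, which round to 0, were left out of these shares. The median number of short features above 0 per library was 279 unrounded, against 257.5 rounded. An expected count that is not whole means that reads were divided between transcripts. Summed over the 7, the level was 13.9, 7.20 and 2.34 CPM on HCHF against 1.54, 2.48 and 0.998 CPM on chow in high LDL-C baboons. The sum in low LDL-C baboons was 8.54, 26.0 and 0.581 CPM on HCHF against 2.09, 8.76 and 1.40 CPM on chow. As reads may have been shared among them, the values of a single one are uncertain.

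With TMM, 1 of the 40 tested features (2.5%) was lower on HCHF in all 6 baboons, against 2.26% of all genes. This was ENSPANG00000026971, on chromosome 16 from 39267755 to 39267866 (111 bp, 3366 bp from the nearest longer gene). It had 1.39, 2.17 and 2.32 CPM on HCHF against 4.88, 7.88 and 6.14 CPM on chow in low LDL-C baboons, whose diets did not overlap. High LDL-C baboons had 2.87, 1.86 and 4.30 CPM on HCHF against 3.97, 3.71 and 7.18 CPM on chow, which overlapped. The log2 fold change was -1.68 (SE 0.41) in low and -0.71 (SE 0.36) in high LDL-C baboons, and -1.15 (SE 0.29) over all 6, with edgeR adjusted p of 0.529, 1.0 and 0.580. On total counts it was higher on HCHF in baboons 2 and 6. No tested feature was higher on HCHF in all 6 with TMM or outside the leading genes and chromosome MT, against 1.96% and 2.09% of all genes. On total counts 4 of the 40 (10%) were, among them the 153-bp feature of chromosome 14, against 1.39% of all genes.

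Among features with the same TMM direction in all 3 low LDL-C baboons, a further pair had an unadjusted p under 0.05. On chromosome 20 from 2624302 to 2624380 (78 bp, inside a gene of 14511 bp with 553 CPM), the level was 0.693, 1.95 and 1.16 CPM on HCHF against 4.09, 3.5 and 3.07 CPM on chow, a log2 difference of -1.60 (SE 0.60, edgeR adjusted p = 0.732). Levels in high LDL-C baboons were 1.36, 9.29 and 3.65 CPM on HCHF against 1.54, 2.89 and 3.99 CPM on chow, where baboon 5 alone was higher. Its direction in baboons 2 and 6 turned on both other scales. Outside the leading genes and chromosome MT, baboon 2 had 6.73 CPM on HCHF against 5.20 CPM on chow, and baboon 6 had 15.8 against 15.29 CPM. On total counts baboon 2 had 1.42 against 0.470 CPM and baboon 6 had 8.15 against 4.83 CPM. On chromosome 4 from 74733113 to 74733287 (174 bp), it was 5.54, 3.04 and 6.10 CPM on HCHF against 2.69, 1.75 and 2.23 CPM on chow in low LDL-C baboons, without overlap (log2 fold change 1.14, SE 0.45, edgeR adjusted p = 0.792). On total counts baboon 1 was lower on HCHF and the diets overlapped.

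At an unadjusted p under 0.05, 2 more features were higher on HCHF in all 3 high LDL-C baboons. One lies on chromosome X from 141749450 to 141749585 (135 bp) inside a gene of 2578 bp with 852 CPM, and had 6.20, 7.66 and 6.25 CPM on HCHF against 2.18, 2.68 and 4.59 CPM on chow (log2 fold change 1.13, SE 0.41, edgeR adjusted p = 0.988). The other lies on chromosome 17 from 23810966 to 23811101 (135 bp) and had 0.605, 2.09 and 0.521 CPM on HCHF against 0, 0.206 and 0.20 CPM on chow, which rest on 4, 9 and 4 counts against 0, 1 and 1. Its neighbour from 23812127 to 23812255 (128 bp, 1026 bp away) had 3, 15 and 1 counts on HCHF against 0, 3 and 3 counts on chow in the same baboons.

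Over all 6 baboons, with a single diet term, 0 of the 40 features and 0% of all genes were called by edgeR. At an unadjusted p under 0.05, 5 features passed (4 higher and 1 lower on HCHF), against 5.32% of all genes (2.25% higher and 3.07% lower), and 3 and 5 passed in DESeq2 and limma. DESeq2 gave an adjusted p to 7 of the 40 and called 0 of these, with 0.389% of all genes, and without its filter it called 1, the 191-bp feature above. Limma called 0, with 0.00864% of all genes. The median log2 fold change was 0.21, against -0.01 over all genes and 0.21 over the compact genes tested. Of the 40, 25 (62.5%) were higher and 15 lower, where 48.2% of all genes were higher. Besides the 191-bp feature of chromosome 16, those with the largest increase in at least 5 baboons were on chromosome 18 from 41861845 to 41861989 (144 bp, log2 fold change 1.77, SE 0.84) and the 191-bp feature of chromosome 14 (1.48, SE 0.58), with edgeR adjusted p of 0.931 and 0.929. The 144-bp feature rests on 3, 13 and 2 counts on HCHF against 4, 1 and 0 on chow in low LDL-C baboons, and on 9, 19 and 1 against 0, 3 and 3 in high LDL-C baboons. Of those with the largest decrease, the feature on chromosome 11 from 103154838 to 103154968 (130 bp) had a log2 difference of -0.76 (SE 0.58) and the 78-bp feature of chromosome 20 one of -0.39 (SE 0.48). On total counts the 144-bp feature was higher on HCHF in 4 baboons, the 130-bp feature was lower in 4 and the 78-bp feature in 3.

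**Figure D4:**
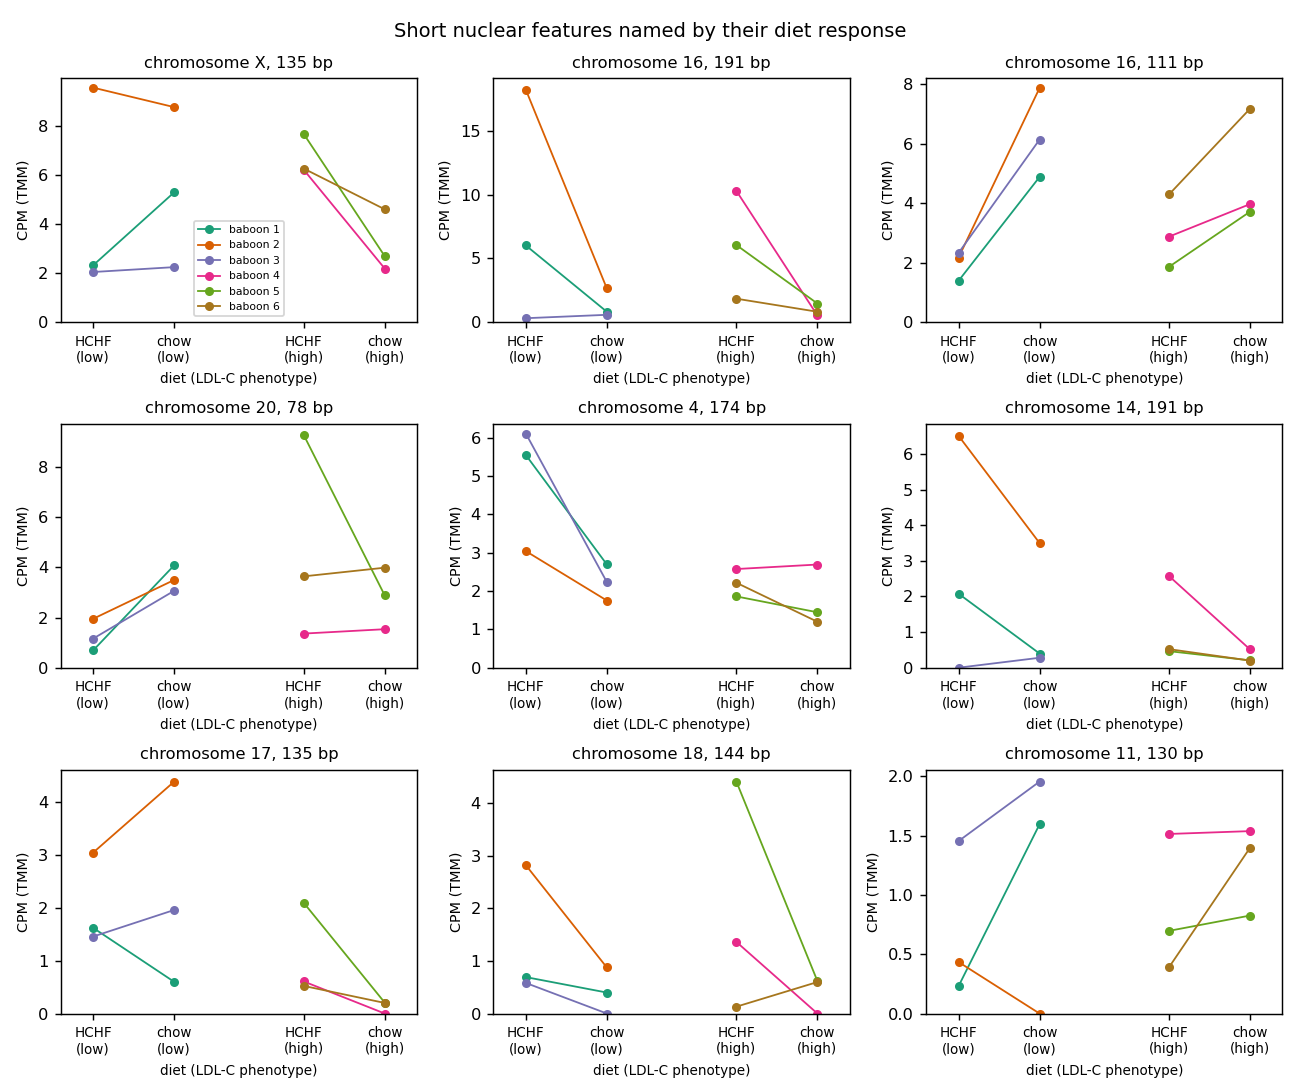
CPM with TMM scaling of the 9 short nuclear features named by their diet values, titled by chromosome and span, with lines joining the HCHF and chow libraries of a baboon (low LDL-C to the left, high LDL-C to the right in each panel). The 111-bp feature of chromosome 16 is lower on HCHF in 6 of 6 baboons and the 191-bp feature of chromosome 16 higher in 5 of 6, and none passed the adjusted threshold in edgeR.

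Diet responses were also compared between the phenotypes (high minus low LDL-C). No short feature was called by edgeR, against 0.225% of all genes, and 4 of the 40 had an unadjusted p under 0.05, all with a higher log2 fold change in high LDL-C baboons, against 3.7% of all genes in that direction, 1.15% in the other and 4.85% in either. DESeq2 and limma called 0 (0.0432% and 0% of all genes), with 0 and 3 at that p, and the lowest adjusted p in edgeR was 0.886. That was the 78-bp feature of chromosome 20, with a difference of 2.10 (SE 0.78). The median difference of the 40 was 0.31, against 0.03 over all genes. Its size and sign depended on the processing. For spans under 250 bp it was 0.03, as over all genes, and without features that overlap another gene it was 0.06. With a mean CPM of at least 5 it was -0.09, against 0.03 over all genes, and with limma -0.06, against -0.08. In the other direction, it was 0.58 for spans under 150 bp and 0.63 without the filter on low counts, against 0.03 and 0.097 over all genes.

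**Figure D5:**
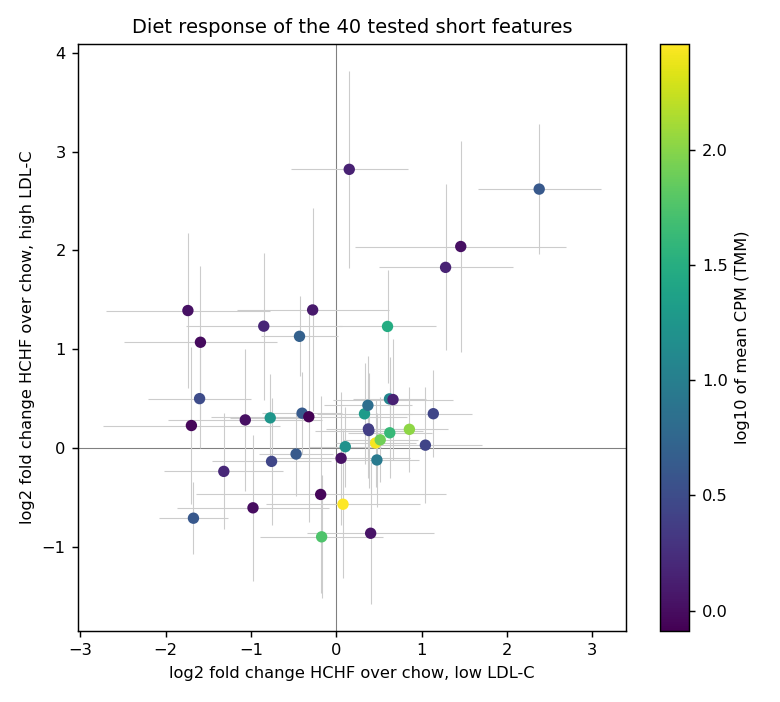
Log2 fold change of HCHF over chow of the 40 tested short features in low LDL-C (horizontal) and high LDL-C (vertical) baboons. Bars are 1 SE, calculated back from the F statistic of edgeR, and the colour gives log10 of the mean CPM. The 12 most abundant features run from -0.77 to 0.86 in low and from -0.90 to 1.23 in high LDL-C baboons. Of the 40, 29 lie above 0 in high LDL-C baboons against 22 in low LDL-C baboons.

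On chow, high LDL-C baboons were compared with low LDL-C baboons over 35 short features with a mean of at least 1 CPM on total counts in the 6 chow libraries. EdgeR called 0 of them and 0% of all 11413 genes. At an unadjusted p under 0.05, 1 passed, lower in high LDL-C baboons, against 5.04% of all genes in that direction and 5.97% in either, and DESeq2 and limma called 0 with 1 each at that p. DESeq2 gave an adjusted p to 30 of the 35 and called 0.289% of all genes, and without its filter 0 of the 35 and 0.298%. It lies on chromosome 14 from 8573445 to 8573540 (95 bp) and had 3.46, 3.30 and 3.39 CPM in high LDL-C baboons on chow against 5.68, 7.0 and 4.75 CPM in low LDL-C baboons on chow, with a log2 difference of -0.74 (SE 0.29, edgeR adjusted p = 0.801) and no overlap. On total counts the groups overlapped, at 4.63, 4.12 and 4.10 CPM in high against 12.3, 0.939 and 4.59 CPM in low LDL-C baboons. The median log2 difference of the 35 was -0.37, against -0.02 over all genes and -0.13 over the compact genes tested. Of the 35, 29 were lower in high LDL-C baboons and 6 (17.1%) above 0, a share that was 47.7% over all genes. With total counts in place of TMM the median was 0.09, against 0.21 over all genes, so that its sign depended on the scaling. The low LDL-C side includes the chow library of baboon 2, in which 14 of the 40 features had their highest TMM level. The same held for 1474 of the 11579 genes tested for diet.

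A single tested feature was restricted to particular animals. On chromosome X from 65003844 to 65003970 (126 bp), baboon 2 had 7 counts on HCHF and 2 on chow and baboon 4 had 21 counts on HCHF and 35 on chow, while the 8 libraries of the other 4 baboons had 0, which allows up to 3 counts in each. The level was 3.18 CPM on HCHF against 4.48 CPM on chow in baboon 4, and 1.52 CPM on HCHF against 1.75 CPM on chow in baboon 2. These animals belong to different LDL-C phenotypes.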

How the data were processed

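The authors sequenced paired-end libraries of poly(A)-selected RNA, and the submitters' processing notes and the study's methods name CASAVA 1.8, STAR 2.3.1j against the Ensembl PapAnu2 release 76 transcriptome, and Partek. The deposited table holds expected counts for 29300 transcripts, estimated by the authors with expectation maximization and scaled neither for length nor for depth. They were summed by gene and rounded, 0 columns were left unmapped, and fits used genes whose mean CPM on total counts, before TMM, was 1 or more. Diet responses were tested with edgeR 4.0.16 (TMM, glmQLFit, glmQLFTest, two-sided) over all 12 libraries with a term for each baboon. EdgeR gives no SE for this test, so each SE was calculated back as the absolute log2 fold change over the square root of the F statistic. Residual degrees of freedom were 4 with a diet term per phenotype, 5 with a single one and 4 in the fit of the 6 chow libraries. DESeq2 1.42.0 and limma 3.58.1 served as alternatives, in R 4.3.3.

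The pairing of diets comes from the animal labels, and the deviations of a baboon's HCHF and chow libraries from their group means correlated across genes at 0.17, 0.081, 0.22, 0.38, 0.25 and 0.14 in baboons 1 to 6. The half-sibling pairs are not in the labels and were not used. Baboon numbers carry no order. Levels are TMM-scaled CPM. A floor of 3 counts corresponds to 0.352 to 0.873 CPM on total counts, and floors and Wilson intervals cover counting error only.

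The features named are the 12 with the highest mean CPM, up to 4 per direction and phenotype that moved alike in all 3 baboons at an unadjusted p under 0.05, up to 3 per direction that moved alike in at least 5 of 6 baboons, and those at the limit of 200 bp. The 191-bp set, the chow feature, the neighbours, the animal-restricted feature and those with opposite directions were named after their values were seen. The members and lists were chosen with earlier results of these data known. Alternatives were other scalings, filters, tests, thresholds, length limits and left-out baboons. Leaving out baboons 1 and 6 together, DESeq2 without independent filtering and thinning with chromosome MT outside were chosen after seeing the data, as were the directions on other scales. No genome sequence or gene symbols were used here.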

Additional observations from a re-analysis of the deposited data

Results flagged for a closer look

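In 2 short features every low LDL-C baboon was lower and every high LDL-C baboon higher on the HCHF diet on the TMM scale. In both, the direction in baboon 2 turned on the other scales. On chromosome 14 from 83501282 to 83501415 (133 bp), the level was 0, 1.30 and 0.290 CPM on HCHF against 1.20, 2.63 and 0.558 CPM on chow in low LDL-C baboons, and 0.756, 3.48 and 0.911 CPM on HCHF against 0.640, 0.826 and 0.20 CPM on chow in high LDL-C baboons. The log2 difference between the responses was 3.13 (SE 1.2), with an unadjusted p of 0.028 and an adjusted p of 0.975 in edgeR's quasi-likelihood test. It rests on 61 counts in 11 libraries. Outside the 2 leading genes and chromosome MT, baboon 2 had 4.48 CPM on HCHF against 3.90 CPM on chow.

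On chromosome 13 from 2998298 to 2998469 (171 bp, inside a gene of 5724 bp with 593.8 CPM), the level was 0.231, 1.74 and 0 CPM on HCHF against 1.40, 2.63 and 0.558 CPM on chow in low LDL-C baboons, and 0.908, 2.09 and 0.651 CPM on HCHF against 0.768, 0.619 and 0.20 CPM on chow in high LDL-C baboons. The log2 difference was 2.66 (SE 1.2), with an unadjusted p of 0.045 and an edgeR adjusted p of 1.0. Outside the leading genes and chromosome MT, baboon 2 had 5.98 CPM on HCHF against 3.90 CPM on chow. The direction of the fitted differences was the same in each alternative in which they could be tested.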

How the results depend on the processing

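With 0 calls in each of the 5 comparisons, most alternatives gave 0 again (other scalings, DESeq2, limma, robust fits, unrounded counts, a mean CPM of at least 5, other length limits, each phenotype alone). DESeq2 without its independent filter, chosen after seeing the data, gave 1 call over all 6 baboons and 0 elsewhere. Without the filter on low counts there were 2 calls in low LDL-C baboons, 1 in high LDL-C baboons and 1 over all 6. At an unadjusted p under 0.05 alone the numbers were 4, 3, 4 (difference between phenotypes), 5 (all 6) and 1 (chow). Leaving out 1 baboon at a time gave 0 to 11 calls in low LDL-C baboons (11 without baboon 2), 0 to 1 over all 6 (without baboon 1, the 191-bp feature of chromosome 16, at 2.40) and 0 to 0 elsewhere. Without the term for each baboon (no replicate block) the 4 diet comparisons again gave 0 calls of short features. Over all genes the calls went from 13 to 0 in high LDL-C baboons and from 26 to 0 for the difference between phenotypes. They stayed at 0 in low LDL-C baboons and over all 6. The all-baboon log2 value of the 78-bp feature of chromosome 20, -0.39, ran from -0.90 to 0.019 when 1 baboon was left out (0.019 without baboon 1) and was 0.086 without baboons 1 and 6. The cause was not tested.

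The median number of detected features per library, 257.5, was 22.5 at 10 or more counts and 160.6 after thinning to equal counts outside the 2 leading genes, or 183 with chromosome MT outside as well, chosen after seeing the data. The median share of counts, 0.106%, was 0.303% outside the 2 leading genes and chromosome MT, 0.0729% without the top feature, 0.0694% for spans under 150 bp and 0.191% for spans under 250 bp. The summed level of the 12 most abundant features had a median of 721 CPM with TMM and of 2490 CPM on counts outside the leading genes and chromosome MT. Depth limits all of this, since 767 of the 942 detected features had under 10 counts, and 3 baboons per phenotype leave large standard errors.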
